A study of Arabidopsis thaliana with 12 samples.

Results

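Glutathione transferases of the phi and tau classes were followed in Arabidopsis thaliana seedlings exposed to warmth, to mannitol or to both. The 38 genes were chosen by locus identifier, 12 of the phi class (GSTF2 to GSTF11, GSTF13 and GSTF14) and 26 of the tau class (GSTU1 to GSTU28 without GSTU14 and GSTU15), out of 27655 genes in the deposited table. The rule uses locus identifiers alone, and all 38 were found. Wild type Columbia seedlings were raised for 7 days at 21°C with 8 h of light and 16 h of dark per day. They then received 27°C with mannitol, 27°C without it, 21°C with mannitol or 21°C without it, from 1 h after dawn (Zeitgeber time, ZT 1) until harvest at ZT 13, with 3 libraries per group. Mannitol, a sugar alcohol, makes the water of the medium harder for roots to take up and so mimics drought around the root (dose not given in the sources used here). Whole seedlings were the tissue, so fewer cells of a type and less RNA per cell cannot be told apart. The labels do not say whether the replicates came from separate cultures, and p-values therefore measure only the spread between these 12 libraries, which may be technical.

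Glutathione transferases join the tripeptide glutathione to electrophilic compounds, which marks them for transport into the vacuole, and some members also reduce peroxides or carry small ligands. The phi and tau classes are the large plant-specific classes of the family, and many of their genes lie in tandem arrays and respond to herbicide safeners, pathogens, salicylic acid, oxylipins and water deficit. TGA transcription factors, which bind the TGACG core of the as-1 promoter element, are known to control several of them.

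The values are transcripts per 1000000 (TPM) and are scaled by gene length, so that levels of different genes can be set side by side. Whole reads recovered from them came to between 13040098 and 14177503 per library, between 18762 and 19640 genes reached 1 TPM, and the correlation between replicates over tested genes lay between 0.9808 and 0.9917. A gene was tested when it reached 1 TPM in at least 3 libraries, which 20005 genes did. Of the 38 members, 32 passed that filter, 9 of 12 phi and 23 of 26 tau. Differences are given on the log2(TPM + 1) scale with their standard error (SE), and a call needs a Benjamini-Hochberg adjusted p below 0.05 from limma over all tested genes. Because 1 was added to each TPM, this scale understates the change of genes near 0 TPM.

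Promoters of 6 genes on which the results below turn are shown first, as the 250 bases upstream of the annotated gene start. GSTF3, GSTF7, GSTU11 and GSTU12 were among the 5 members with the largest differences with mannitol, GSTU20 had the largest fall with warmth, and GSTU7 held the most TGACG cores among these 6. Capitals mark TGACG (the TGA core) and TTGAC (the core of the W-box bound by WRKY factors), each on either strand, so that CGTCA and GTCAA are marked too. Sequences and positions are from RefSeq, build TAIR10.1, and are written 5′ to 3′ along the gene.
GSTF3 promoter, chr2:852322-852571, minus strand: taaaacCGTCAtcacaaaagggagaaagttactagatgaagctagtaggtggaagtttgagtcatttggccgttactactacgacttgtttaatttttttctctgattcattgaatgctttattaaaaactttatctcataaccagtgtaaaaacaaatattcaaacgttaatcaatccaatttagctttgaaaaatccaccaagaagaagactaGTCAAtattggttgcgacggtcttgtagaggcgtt
GSTF7 promoter, chr1:659981-660230, minus strand: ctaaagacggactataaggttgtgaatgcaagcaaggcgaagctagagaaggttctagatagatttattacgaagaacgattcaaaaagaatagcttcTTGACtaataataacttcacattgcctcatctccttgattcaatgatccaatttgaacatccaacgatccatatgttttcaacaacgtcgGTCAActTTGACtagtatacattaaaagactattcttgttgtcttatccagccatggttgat
GSTU11 promoter, chr1:26338819-26339068, minus strand: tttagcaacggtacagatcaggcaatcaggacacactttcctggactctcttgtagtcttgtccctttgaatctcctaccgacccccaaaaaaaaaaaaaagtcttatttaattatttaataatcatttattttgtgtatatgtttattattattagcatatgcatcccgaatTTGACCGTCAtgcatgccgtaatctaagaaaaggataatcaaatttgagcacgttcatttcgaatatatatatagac
GSTU12 promoter, chr1:26335631-26335880, minus strand: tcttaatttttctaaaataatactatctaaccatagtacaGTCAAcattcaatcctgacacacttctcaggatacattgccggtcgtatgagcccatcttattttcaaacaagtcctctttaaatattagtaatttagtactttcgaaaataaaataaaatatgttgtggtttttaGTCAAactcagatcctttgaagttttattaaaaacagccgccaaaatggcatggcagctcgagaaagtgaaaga
GSTU7 promoter, chr2:12618900-12619149, minus strand: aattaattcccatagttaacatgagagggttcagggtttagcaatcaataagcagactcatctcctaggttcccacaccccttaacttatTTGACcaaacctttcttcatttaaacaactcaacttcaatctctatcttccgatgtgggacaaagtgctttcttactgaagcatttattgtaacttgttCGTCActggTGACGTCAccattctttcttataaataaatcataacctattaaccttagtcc
GSTU20 promoter, chr1:29485390-29485639, minus strand: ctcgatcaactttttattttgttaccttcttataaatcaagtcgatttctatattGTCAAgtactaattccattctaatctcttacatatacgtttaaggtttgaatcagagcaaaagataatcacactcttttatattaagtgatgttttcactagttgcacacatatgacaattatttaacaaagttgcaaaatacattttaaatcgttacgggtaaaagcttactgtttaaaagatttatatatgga

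At least 1 TGACG lay in 14 of the 38 member promoters (36.84%), against 5098 of 27443 protein-coding genes (18.58%). By class, 11 of 26 tau promoters and 3 of 12 phi promoters held it. TTGAC was found in 23 of 38 member promoters, against 44.93% of all promoters, and the 2 motifs overlap only where the letters TTGACG occur. The G-box CACGTG was found in 3 of 38 against 6.49%, and the heat shock element unit GAANNTTC in 5 of 38 against 9.55%. GSTU7 held 3 TGACG cores, 2 of them sharing bases in its palindrome, and 160 of all promoters (0.583%) held 3 or more. It was shown for this number of cores, so its place in that share is no result about the members. GSTF3 and GSTU11 held 1 TGACG each, and GSTF7, GSTU12 and GSTU20 held none in this window. GSTF7 held 3 TTGAC cores and GSTU12 held 2. A match is a description of these letters, and no match says only that they are not in the 250 bases.

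At both temperatures more tested members were called higher with mannitol than were called lower. At 27°C, 19 of the 32 tested members rose with mannitol and 2 fell, and at 21°C 20 rose and 2 fell. Of all tested genes, 34.5% were called with mannitol at 27°C (27.7% higher and 6.8% lower) and 20.0% at 21°C (15.4% higher and 4.61% lower). With the columns rescaled by median of ratios, 11.7% of all tested genes were higher and 14.9% lower at 27°C, where 16 members were higher and 3 lower, and 10.3% were higher and 9.53% lower at 21°C, where 17 members were higher and 3 lower. A rise of at least 1 was found in 10 members at 27°C, against 3.49% of all tested genes, and in 9 at 21°C, against 3.35%. GSTU11 and GSTU12 are counted in each number of rises of members and of tau genes given here. They passed the filter only through libraries with mannitol, so their rises were fixed in advance. No member fell by at least 1, against 0.68% of all tested genes at 27°C and 0.38% at 21°C. Among the phi genes 6 rose and 1 fell of 9 at 27°C and 7 rose at 21°C, and among the tau genes 13 of 23 rose at each temperature. Medians were 0.77 for phi and 0.44 for tau at 27°C, and 0.55 for phi and 0.41 for tau at 21°C. The median member differed by 0.55 with mannitol at 27°C and by 0.46 at 21°C, where the median of all tested genes was 0.17 at 27°C and 0.08 at 21°C. The 2 contrasts share no library, and 17 members rose in both of them, GSTU11 and GSTU12 included, against 10.7% of all tested genes. GSTU20 fell in both, GSTF4 fell at 27°C, and no member was called in opposite directions. GSTF8, GSTU25 and GSTU27 were called higher at 21°C and did not pass at 27°C, while GSTU4 and GSTU6 were called higher at 27°C and did not pass at 21°C. None of these, nor GSTF4, passed the direct limma test between the temperatures (the interaction, below). Its adjusted p was 0.130 for GSTF8, 0.054 for GSTU25, 0.155 for GSTU27, 0.280 for GSTU4, 0.362 for GSTU6 and 0.191 for GSTF4. GSTF8 and GSTU25 passed it with rescaling. With rescaling the call of GSTU6 at 27°C was lost (adjusted p = 0.0581), as was that of GSTU16 (adjusted p = 0.242). At 21°C rescaling removed the calls of GSTU8 (adjusted p = 0.123) and GSTU16 (adjusted p = 0.108). GSTF9 at 21°C and GSTU19 at 27°C also lost theirs (below), so fewer members rose in both contrasts with rescaling. GSTU23 was called lower at 21°C (-0.64, adjusted p = 0.0482), a call that held in 6 of 12 fits with 1 library left out and was lost with voom (adjusted p = 0.134).

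**Figure D1:**
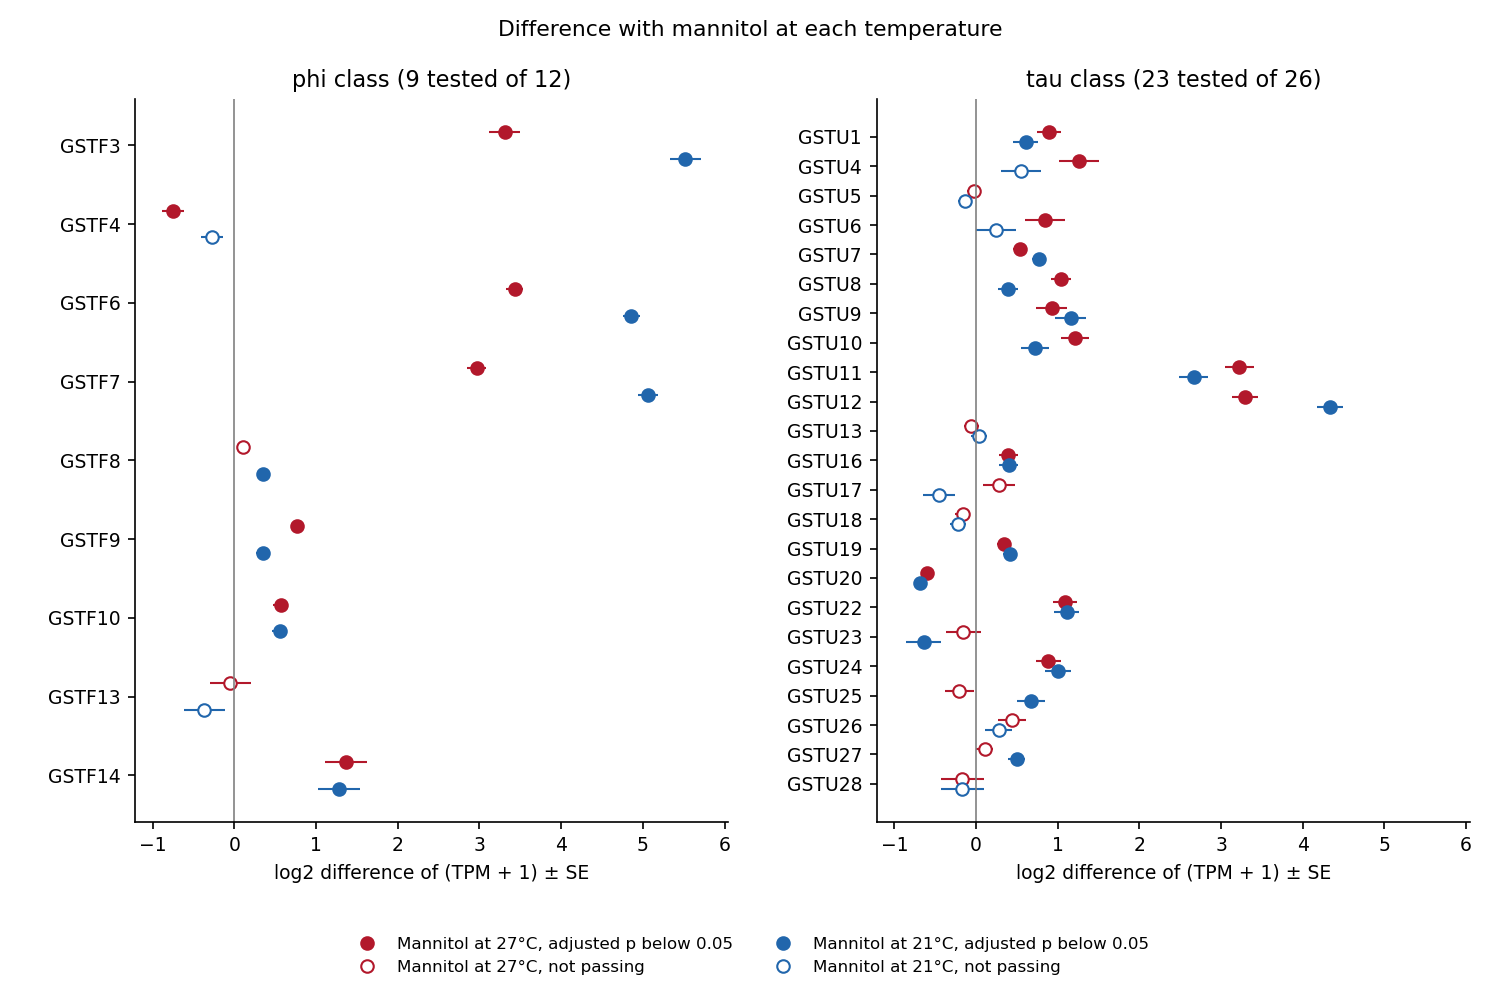
Difference with mannitol for the 9 tested phi genes and the 23 tested tau genes, as log2 difference of (TPM + 1) with SE on the x axis. Red points are 27°C plus mannitol against 27°C and blue points 21°C plus mannitol against 21°C, with filled points passing the adjusted p of 0.05. GSTF3, GSTF6, GSTF7, GSTU11 and GSTU12 lie at 2.66 or more at both temperatures, and every other member lies at 1.36 or below.

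Several markers of cell types moved with mannitol as well. Among 6 photosynthetic markers, 6 fell with mannitol at 27°C and 5 at 21°C, and their summed level was 31990 to 33380 TPM in 27°C plus mannitol seedlings, 46770 to 48700 TPM at 27°C, 39150 to 41430 TPM at 21°C plus mannitol and 49410 to 51000 TPM at 21°C. Of 8 root markers, 4 rose with mannitol at each temperature and none fell, and their sum was 4648 to 5026 TPM in 27°C plus mannitol seedlings, 2887 to 3098 TPM at 27°C, 2932 to 3052 TPM at 21°C plus mannitol and 2411 to 2574 TPM at 21°C. Most of that sum is the single gene PYK10, at 4431 to 4815 TPM in 27°C plus mannitol seedlings and 2731 to 2943 TPM at 27°C. COBL9 and EXPA7, which mark root hairs, did not pass in either contrast, and no marker of either list was at 0 in all libraries. Of all tested genes, 27.7% were higher and 6.8% lower with mannitol at 27°C, and 15.4% were higher and 4.61% lower at 21°C. The part of these markers in the differences of the members was not tested.

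Among the phi genes, GSTF3, GSTF6 and GSTF7 had the largest differences. GSTF6 (AT1G02930), also known as ERD11 and linked to the synthesis of the phytoalexin camalexin, stood at 241, 268 and 265 TPM in the 27°C plus mannitol libraries and at 20.9, 27.9 and 21.0 TPM in the 27°C libraries. In the 21°C plus mannitol libraries it stood at 552, 546 and 537 TPM, and in the 21°C libraries at 20.3, 16.4 and 16.99 TPM. Both mannitol groups lay far above every library without mannitol, and those at 21°C lay above those at 27°C. The difference with mannitol was 3.43 (SE 0.10, adjusted p = 2.12e-11) at 27°C and 4.86 (SE 0.10, adjusted p = 3.69e-13) at 21°C, or 11.1 and 30.5 times the mean TPM without mannitol.

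GSTF7 (AT1G02920), the neighbour of GSTF6 with 94.3% identical coding bases, had 380, 394 and 449 TPM at 27°C plus mannitol, against 53.3, 53.2 and 47.5 TPM at 27°C. The values were 533, 466 and 553 TPM at 21°C plus mannitol, against 11.8, 13.9 and 18.3 TPM at 21°C. No group overlapped another, and the lowest was 21°C without mannitol. With mannitol GSTF7 rose by 2.96 (SE 0.12, adjusted p = 3.51e-10) at 27°C and by 5.07 (SE 0.12, adjusted p = 1e-12) at 21°C. The sources used here do not say how reads matching both GSTF6 and GSTF7 were assigned, so the split between the 2 genes is uncertain.

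GSTF3 (AT2G02930) shares 94.5% of its coding bases with GSTF2, which is listed at or near 0 and is 85.3% covered by a gene on the opposite strand. How reads matching both genes were assigned is not given, so whether values of GSTF3 include reads of GSTF2 was not tested. GSTF3 had 54.1, 70.3 and 59.5 TPM at 27°C plus mannitol, against 4.70, 5.13 and 6.02 TPM at 27°C. At 21°C plus mannitol it had 72.9, 69.3 and 62.5 TPM, against 0.709, 0 and 0.990 TPM at 21°C, which correspond to 5, 0 and 7 recovered reads. The 2 mannitol groups overlapped each other and lay above all other libraries. GSTF3 rose by 3.31 (SE 0.20, adjusted p = 1.53e-08) with mannitol at 27°C and by 5.52 (SE 0.20, adjusted p = 4.3e-11) at 21°C. The difference at 21°C rests on few reads without mannitol, and its size depends on the added 1.

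**Figure D2:**
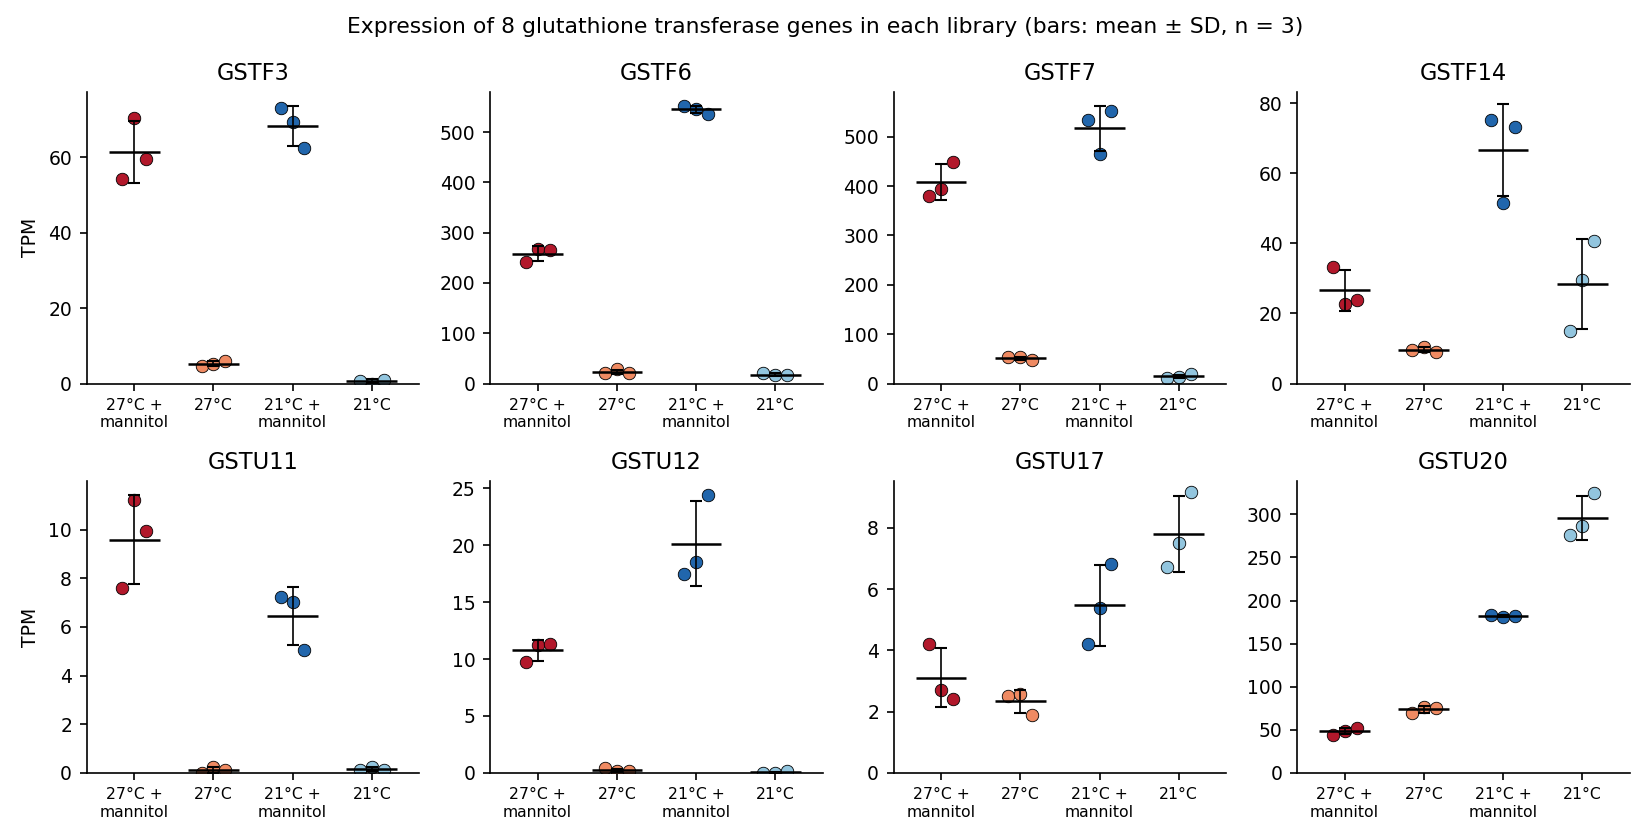
TPM of 8 members in each of the 12 libraries, from left to right at 27°C plus mannitol, 27°C, 21°C plus mannitol and 21°C, with points for libraries and bars for the mean and SD of 3. GSTF6 is at 241 to 268 TPM at 27°C plus mannitol and at 537 to 552 TPM at 21°C plus mannitol, and GSTU20 is at 44.4 to 52.2 TPM at 27°C plus mannitol and at 276 to 324 TPM at 21°C.

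GSTF14 (AT1G49860) had 33.3, 22.6 and 23.7 TPM at 27°C plus mannitol, against 9.42, 10.4 and 8.99 TPM at 27°C, and 75.02, 51.4 and 73.1 TPM at 21°C plus mannitol, against 15.1, 29.4 and 40.7 TPM at 21°C. Libraries with mannitol lay above those without at the same temperature, and the 21°C libraries were spread widely. Its difference was 1.36 (SE 0.26, adjusted p = 0.00101) at 27°C and 1.28 (SE 0.26, adjusted p = 0.00233) at 21°C.

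GSTF9 (AT2G30860) and GSTF10 (AT2G30870), neighbours on chromosome 2, were the most abundant phi genes. GSTF9, an enzyme with glutathione peroxidase activity, had 1031, 1164 and 1161 TPM at 27°C plus mannitol, against 585, 719 and 665 TPM at 27°C. It had 1125, 1101 and 1136 TPM at 21°C plus mannitol, against 808, 882 and 959 TPM at 21°C. The mannitol groups overlapped each other and lay above both groups without it. It rose by 0.77 (SE 0.08, adjusted p = 3.97e-06) at 27°C and by 0.35 (SE 0.08, adjusted p = 0.0058) at 21°C. The call at 21°C is lost when the columns are rescaled by median of ratios (adjusted p = 0.0546).

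GSTF10, also known as ERD13, had 475, 479 and 513 TPM at 27°C plus mannitol, against 274, 400 and 329 TPM at 27°C. It had 730, 714 and 732 TPM at 21°C plus mannitol, against 475, 508 and 501 TPM at 21°C, and rose by 0.56 (SE 0.10, adjusted p = 0.000443) at 27°C and by 0.55 (SE 0.10, adjusted p = 0.000779) at 21°C. GSTF8, a chloroplast enzyme whose promoter is a common stress reporter, rose by 0.35 at 21°C (SE 0.06, adjusted p = 0.000839) and did not pass at 27°C (0.11, SE 0.06, adjusted p = 0.201). GSTF4 fell by 0.75 at 27°C (SE 0.14, adjusted p = 0.000803), and GSTF13, at 0.765 to 2.90 TPM over the 12 libraries, passed in neither contrast.

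Of the tau genes, GSTU11 (AT1G69930) and GSTU12 (AT1G69920), which are next to each other on chromosome 1, were close to 0 without mannitol. GSTU12 had 9.73, 11.3 and 11.4 TPM at 27°C plus mannitol, against 0.384, 0.120 and 0.127 TPM at 27°C. It had 17.5, 18.5 and 24.4 TPM at 21°C plus mannitol, against 0, 0 and 0.119 TPM at 21°C, where the 3 libraries held 1 recovered read in all. GSTU11 had 7.60, 11.2 and 9.93 TPM at 27°C plus mannitol, against 0, 0.248 and 0.131 TPM at 27°C.

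At 21°C plus mannitol GSTU11 had 7.22, 7.04 and 5.07 TPM, against 0.124, 0.251 and 0.123 TPM at 21°C. The fit gave GSTU12 differences of 3.29 (SE 0.16, adjusted p = 1.97e-09) at 27°C and 4.33 (SE 0.16, adjusted p = 5.53e-11) at 21°C, and GSTU11 differences of 3.22 (SE 0.18, adjusted p = 9.33e-09) and 2.66 (SE 0.18, adjusted p = 6.4e-08) in the same order. Neither gene reaches 1 TPM in any library without mannitol, so both passed the filter through the mannitol libraries and had to differ. The sizes depend on the added 1 and are not bounds.

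GSTU19 (AT1G78380), a well studied enzyme that conjugates herbicides and responds to safeners, was the most abundant tau gene. It had 459, 472 and 484 TPM at 27°C plus mannitol, against 317, 412 and 396 TPM at 27°C, and 534, 558 and 517 TPM at 21°C plus mannitol, against 366, 425 and 418 TPM at 21°C. Its difference was 0.34 at 27°C (SE 0.09, adjusted p = 0.00735) and 0.41 at 21°C (SE 0.09, adjusted p = 0.003), and the call at 27°C is lost with rescaling (adjusted p = 0.273). Libraries with mannitol lay above those without it at the same temperature. GSTU24 and GSTU25, known to act on the explosive TNT, are next to each other, and GSTU24 rose by 0.886 at 27°C and 1.003 at 21°C, while GSTU25 rose by 0.67 at 21°C and stood at -0.20 at 27°C (adjusted p = 0.38). Without 21°C replicate 1 the difference of GSTU25 at 21°C no longer passed (0.47, adjusted p = 0.0643).

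GSTU22 (AT1G78340) had 38.8, 49.9 and 42.6 TPM at 27°C plus mannitol, against 16.5, 21.8 and 22.1 TPM at 27°C, and 54.2, 58.7 and 45.3 TPM at 21°C plus mannitol, against 19.8, 22.6 and 30.0 TPM at 21°C. It rose by 1.09 (SE 0.15, adjusted p = 7.49e-05) at 27°C and by 1.11 (SE 0.15, adjusted p = 8.31e-05) at 21°C. GSTU10 had 15.1, 24.9 and 27.3 TPM at 27°C plus mannitol, against 8.74, 9.02 and 8.81 TPM at 27°C, and rose by 1.21 (SE 0.17, adjusted p = 9.19e-05). Its difference at 21°C was 0.72 (SE 0.17, adjusted p = 0.00743), from 12.2, 14.1 and 11.8 TPM at 21°C plus mannitol, against 6.70, 6.66 and 8.55 TPM at 21°C. In none of these pairs did libraries with mannitol overlap those without it.

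GSTU9 had 16.9, 20.4 and 25.2 TPM at 27°C plus mannitol, against 9.48, 10.3 and 11.5 TPM at 27°C, and 14.9, 13.1 and 17.1 TPM at 21°C plus mannitol, against 4.21, 6.56 and 8.25 TPM at 21°C. Groups with and without mannitol did not overlap at either temperature. The differences were 0.92 (SE 0.19, adjusted p = 0.00161) at 27°C and 1.16 (SE 0.19, adjusted p = 0.000393) at 21°C. GSTU4 had 3.29, 2.69 and 3.74 TPM at 27°C plus mannitol, against 0.250, 1.53 and 0.744 TPM at 27°C, a difference of 1.25 (SE 0.24, adjusted p = 0.00128). At 21°C GSTU4 had 4.39, 2.45 and 3.07 TPM with mannitol, against 1.40, 2.25 and 2.099 TPM without, and did not pass (0.55, SE 0.24, adjusted p = 0.138).

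GSTU20 (AT1G78370) was lower in seedlings with mannitol than without at both temperatures. This enzyme binds the jasmonate-conjugating protein FIN219 in far-red light signalling and has been tied to glucosinolate synthesis. Levels were 44.4, 48.5 and 52.2 TPM at 27°C plus mannitol, against 69.4, 76.6 and 75.1 TPM at 27°C, and 183, 181 and 183 TPM at 21°C plus mannitol, against 276, 287 and 324 TPM at 21°C. The 4 groups did not overlap. With mannitol GSTU20 differed by -0.60 (SE 0.07, adjusted p = 2.34e-05) at 27°C and by -0.69 (SE 0.07, adjusted p = 7.26e-06) at 21°C.

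**Figure D3:**
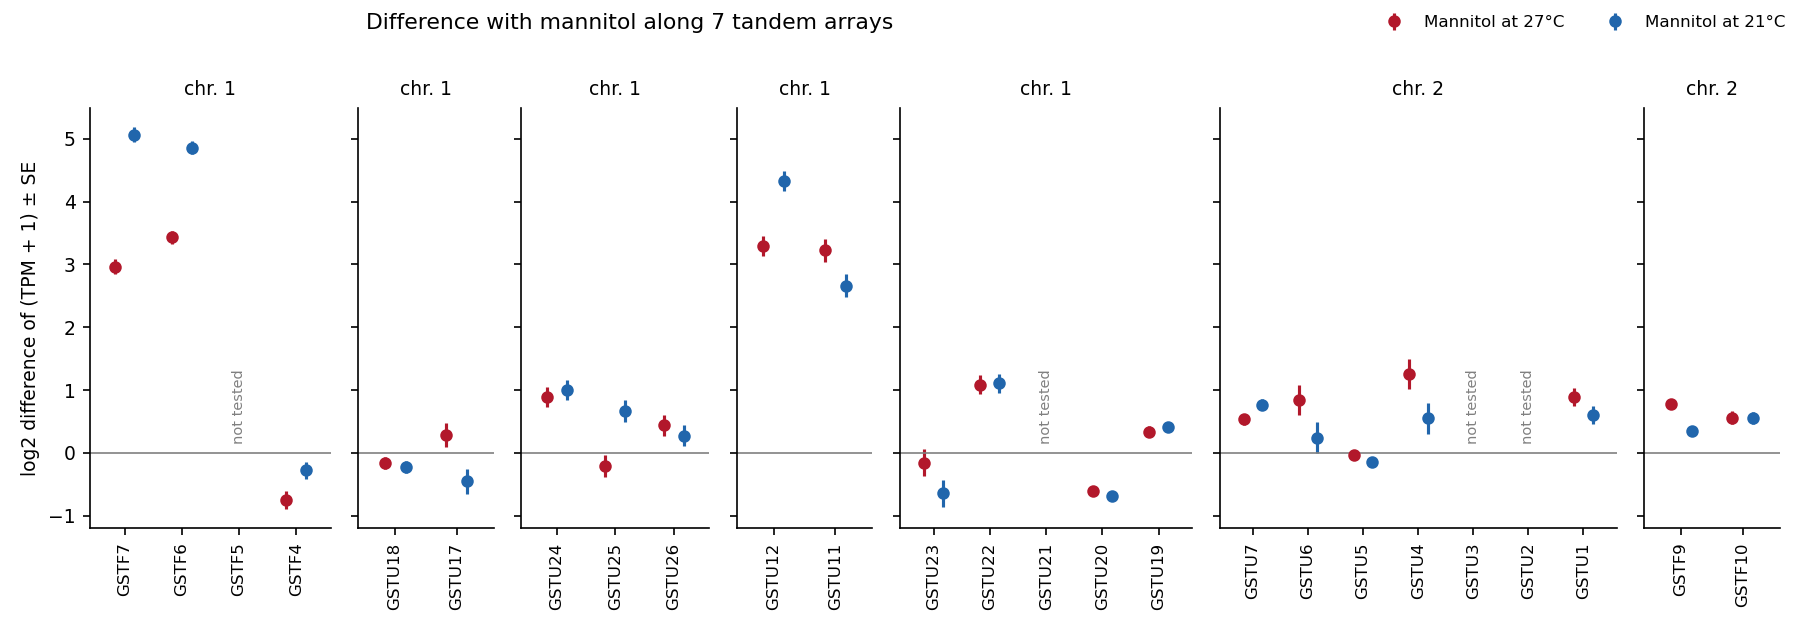
Difference with mannitol of the 25 members in 7 tandem arrays, in gene order within each array, as log2 difference of (TPM + 1) with SE, with red points for 27°C and blue points for 21°C and members that did not pass the filter marked as not tested. GSTF7 and GSTF6 lie at 2.96 or more while GSTF4 in the same array lies at -0.75 and -0.27, and GSTU19 and GSTU20 lie on opposite sides of 0.

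Neighbours within an array did not always move together. A tandem array was counted where at most 2 coding genes lay between members, which placed 25 members in 7 arrays and left 13 alone. In the array GSTF7, GSTF6, GSTF5, GSTF4 on chromosome 1, GSTF7 and GSTF6 were at least 2.96 higher with mannitol and GSTF4 was lower at 27°C. In the array GSTU23, GSTU22, GSTU21, GSTU20, GSTU19, GSTU22 and GSTU19 rose with mannitol and GSTU20 fell. In the array GSTU7 to GSTU1 on chromosome 2, GSTU7 and GSTU1 rose at both temperatures, while GSTU5, at 76.6 to 101 TPM over all libraries, passed in no contrast.

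The mannitol difference itself was not the same at both temperatures for 6 members. The interaction, the mannitol difference at 27°C minus that at 21°C, was negative for GSTF3 (-2.21, SE 0.28, adjusted p = 0.000246), GSTF7 (-2.10, SE 0.17, adjusted p = 1.38e-05), GSTF6 (-1.43, SE 0.14, adjusted p = 5.32e-05) and GSTU12 (-1.05, SE 0.22, adjusted p = 0.0138). It was positive for GSTU8 (0.65, SE 0.17, adjusted p = 0.0441) and GSTF9 (0.42, SE 0.11, adjusted p = 0.041). In all, 2 members were higher and 4 lower in this term, against 5.12% of all tested genes called (2.43% higher). The 4 negative terms were all at least 1 in size, against 0.975% of all tested genes. Of these 4, GSTU12 passed the filter only through libraries with mannitol. With median-of-ratios rescaling the split was 0 higher and 6 lower, with GSTF8 and GSTU25 added. With that rescaling 1.57% of all tested genes were higher in this term and 3.70% lower. Both positive calls are lost with rescaling (adjusted p = 0.0891 for GSTU8 and 0.125 for GSTF9), without a filter on low values and with voom, and GSTU12 is lost with voom (adjusted p = 0.16). Leaving out 1 library at a time, GSTU8 passed in 3 of 12 fits and GSTF9 in 4 of 12.

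The levels behind the 4 negative terms differed. GSTF3 reached similar levels with mannitol at both temperatures, while its level without mannitol was 5.28 ± 0.67 TPM at 27°C and 0.566 ± 0.51 TPM at 21°C (SD, n = 3 each). GSTF7 was lower at 27°C plus mannitol than at 21°C plus mannitol and higher at 27°C than at 21°C. GSTF6 was mainly lower with both treatments, at 258 ± 15 TPM at 27°C plus mannitol and 545 ± 8 TPM at 21°C plus mannitol (SD, n = 3 each). For the positive term, GSTU8 stood at 61.9, 69.9 and 66.6 TPM at 27°C plus mannitol, against 26.2, 35.7 and 33.7 TPM at 27°C, and at 78.6, 81.0 and 64.9 TPM at 21°C plus mannitol, against 47.9, 62.8 and 59.6 TPM at 21°C.

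Warmth alone moved members in both directions. Of the 32 tested members, 8 were higher at 27°C than at 21°C and 7 lower, where 44.8% of all tested genes were called (28.2% higher and 16.6% lower). With rescaling 6 members were higher and 7 lower, where 22.0% of all tested genes were higher and 21.7% lower. Among the phi genes 4 rose and 3 fell of 9, and among the tau genes 4 rose and 4 fell of 23. Their medians were 0.25 for phi and -0.07 for tau, against 0.09 for all tested genes. GSTF3 and GSTF7 rose by at least 1, against 3.86% of all tested genes, and GSTF14, GSTU17 and GSTU20 fell by at least 1, against 1.27%. Leaving out 27°C replicate 2 raised the number of lower members to 12 and left 8 higher. In that fit 6207 of 19958 tested genes were higher and 3463 lower, so calls over all genes rose too. Of 3 tested seed and embryo markers 1 was higher with warmth, where 44.8% of all tested genes were called. Sums over all 5 listed seed and embryo markers, tested or not, overlapped, at 9.57 to 30.0 TPM at 27°C and 0.287 to 17.6 TPM at 21°C. The highest sum at 21°C was that of replicate 2, where CRA1 stood at 9.11 TPM, and the median was 0.996 TPM. SESA1 and CRC did not pass the filter. Of the photosynthetic markers 1 was higher and 2 lower with warmth, among them LHCB3 at 432 to 459 TPM at 27°C and 1139 to 1268 TPM at 21°C, and of the root markers 2 were higher and 1 lower. The part of these markers was not tested.

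GSTU20 had the largest fall, at 69.4, 76.6 and 75.1 TPM at 27°C against 276, 287 and 324 TPM at 21°C (-1.99, SE 0.07, adjusted p = 1.32e-10). GSTU17, also known as ERD9 and reported to dampen drought and abscisic acid responses, had 2.51, 2.59 and 1.90 TPM at 27°C, against 6.72, 7.4997 and 9.16 TPM at 21°C (-1.40, SE 0.19, adjusted p = 3.69e-05). GSTF14 had 9.42, 10.4 and 8.99 TPM at 27°C, against 15.1, 29.4 and 40.7 TPM at 21°C (-1.37, SE 0.26, adjusted p = 0.000537). In none of the 3 did the groups overlap. GSTU8 fell by 0.82 (SE 0.12, adjusted p = 7.99e-05), GSTF10 fell by 0.58 (SE 0.10, adjusted p = 0.000188) and GSTF9 fell by 0.43 (SE 0.08, adjusted p = 0.000456). GSTU4 was called lower (-0.71, SE 0.24, adjusted p = 0.0276), with overlapping groups at low levels. That call held in 8 of 12 fits with 1 library left out and was lost with only the groups compared (adjusted p = 0.0662).

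GSTF3 and GSTF7 rose most with warmth, by 2.06 (SE 0.20, adjusted p = 1.19e-06) and 1.76 (SE 0.12, adjusted p = 5.77e-08), and the groups of each did not overlap. GSTU7 had 100.5, 125 and 124 TPM at 27°C, against 65.5, 69.4 and 75.1 TPM at 21°C, and rose by 0.72 (SE 0.09, adjusted p = 1.49e-05). GSTU9 rose by 0.67 (SE 0.19, adjusted p = 0.00842). GSTF6 was called higher by 0.35 (adjusted p = 0.0103), a call lost with rescaling (adjusted p = 0.0629), with voom (adjusted p = 0.0713) and without 21°C replicate 2 (adjusted p = 0.0503). GSTF8, GSTU13 and GSTU18 rose by 0.30 to 0.36, and GSTU18 lost its call with rescaling (adjusted p = 0.0854).

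**Figure D4:**
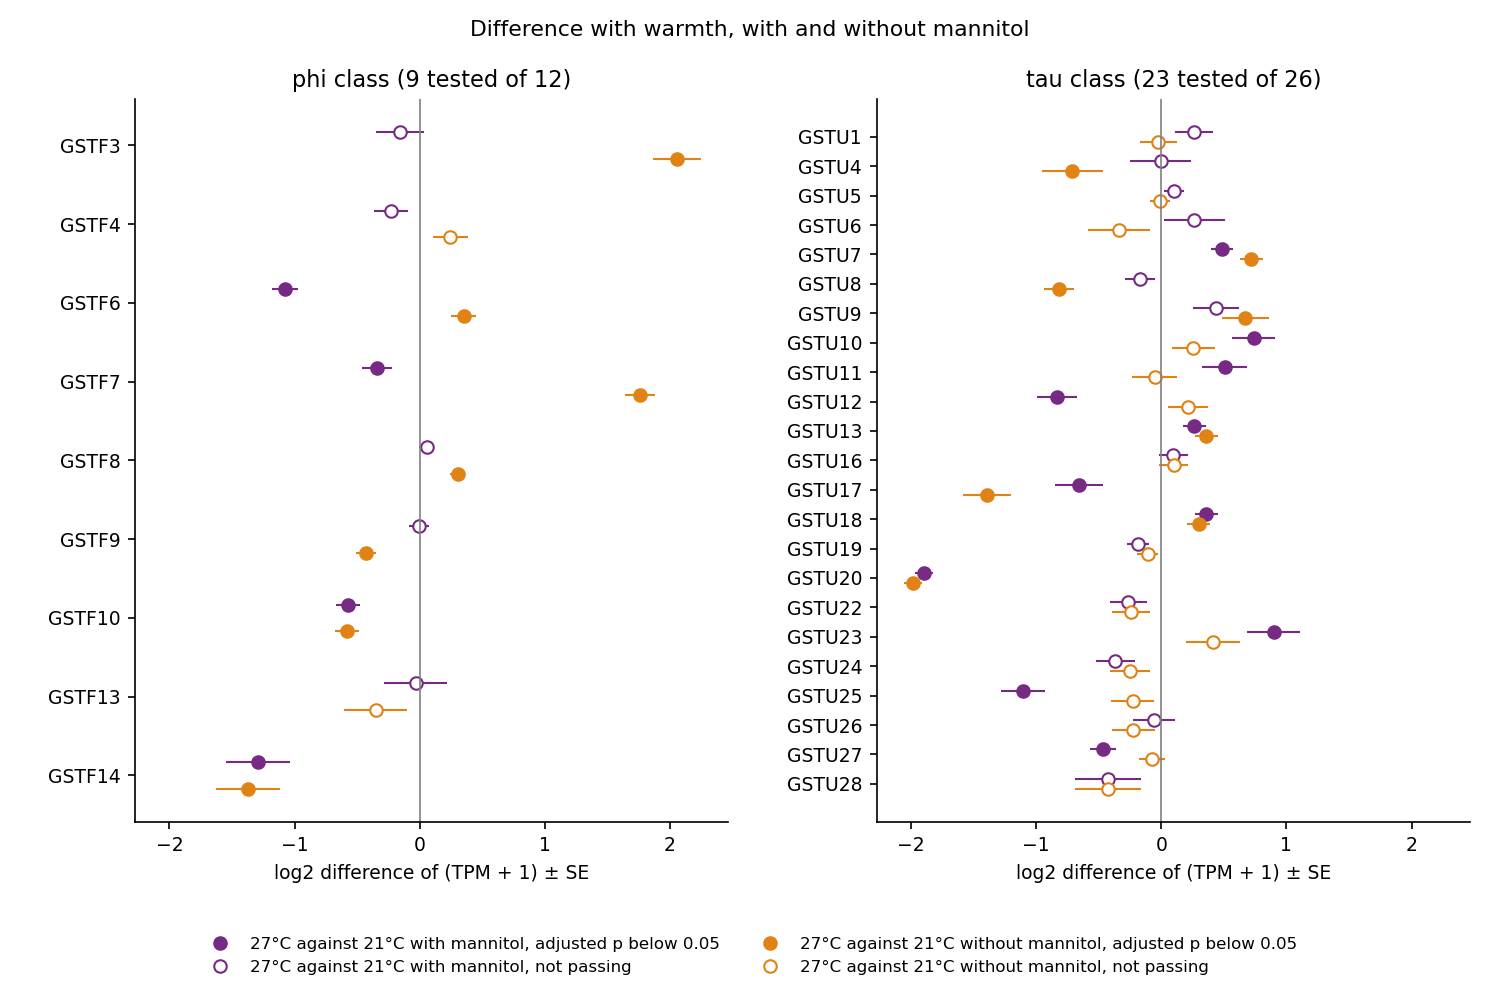
Difference between 27°C and 21°C, as log2 difference of (TPM + 1) with SE, for 9 tested phi and 23 tested tau genes, with purple points for seedlings on mannitol and orange points for seedlings without it. Filled points pass the adjusted p of 0.05. GSTF3 lies at 2.06 without mannitol and at -0.16 with it, and GSTU20 lies at -1.99 and -1.89.

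In 27°C plus mannitol against 21°C plus mannitol, 6 of the 32 tested members were higher and 9 lower, and 54.0% of all tested genes were called (37.5% higher and 16.5% lower). None rose by at least 1, against 4.68% of all tested genes, and 4 fell by at least 1, against 1.84%. With rescaling the split of members became 3 higher and 14 lower, where 23.0% of all tested genes were higher and 25.4% lower. No phi gene was higher and 4 of 9 were lower, while 6 tau genes were higher and 5 lower of 23. The median was -0.23 for phi and -0.01 for tau, against 0.16 for all tested genes. Seed and embryo markers summed to 15.3 to 42.7 TPM at 27°C plus mannitol and 0.114 to 7.51 TPM at 21°C plus mannitol, with 3 of 3 tested higher, and photosynthetic markers were lower in 4 of 6. Their part was not tested.

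GSTU20 differed by -1.89 (SE 0.07, adjusted p = 2.31e-10) in seedlings on mannitol, GSTF14 by -1.29 (SE 0.26, adjusted p = 0.000702), GSTU25 by -1.11 (SE 0.17, adjusted p = 9.99e-05) and GSTF6 by -1.08 (SE 0.10, adjusted p = 8.95e-07). GSTU25 had 31.8, 31.99 and 34.5 TPM at 27°C plus mannitol, against 73.6, 69.6 and 71.5 TPM at 21°C plus mannitol, without overlap. GSTU12 fell by 0.83 (SE 0.16, adjusted p = 0.000513), a call lost with 0.1 added in place of 1 (adjusted p = 0.06). GSTF10 fell by 0.57 (SE 0.10, adjusted p = 0.000185), and GSTF7 fell by 0.34 (SE 0.12, adjusted p = 0.0264), a call lost with no mean-variance trend (adjusted p = 0.0562) and without 27°C plus mannitol replicate 1 (adjusted p = 0.0953) or 2 (adjusted p = 0.0774) or 21°C plus mannitol replicate 1 (adjusted p = 0.0762) or 3 (adjusted p = 0.0981).

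GSTU23 was the tau gene with the largest rise on mannitol, with 6.49, 4.57 and 8.67 TPM at 27°C plus mannitol, against 2.46, 3.70 and 2.83 TPM at 21°C plus mannitol (0.90, SE 0.21, adjusted p = 0.00267). GSTU10 rose by 0.74 (SE 0.17, adjusted p = 0.0022), GSTU11 by 0.51 (SE 0.18, adjusted p = 0.0283), GSTU7 by 0.49 (SE 0.09, adjusted p = 0.000384), GSTU18 by 0.36 (SE 0.09, adjusted p = 0.00448) and GSTU13 by 0.26 (SE 0.09, adjusted p = 0.0265). Of these, GSTU11, GSTU13 and GSTU18 lose the call with rescaling, and with 1 library left out GSTU11 passed in 9 of 12 fits and GSTU13 in 7 of 12. GSTU11 also loses it with 0.1 (adjusted p = 0.273) or 0.5 (adjusted p = 0.062) added in place of 1 and with voom (adjusted p = 0.0694). GSTU13 also loses it with voom (adjusted p = 0.187) and with no mean-variance trend (adjusted p = 0.0534). GSTU13 has a role in the indole glucosinolate pathway of defence.

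**Figure D5:**
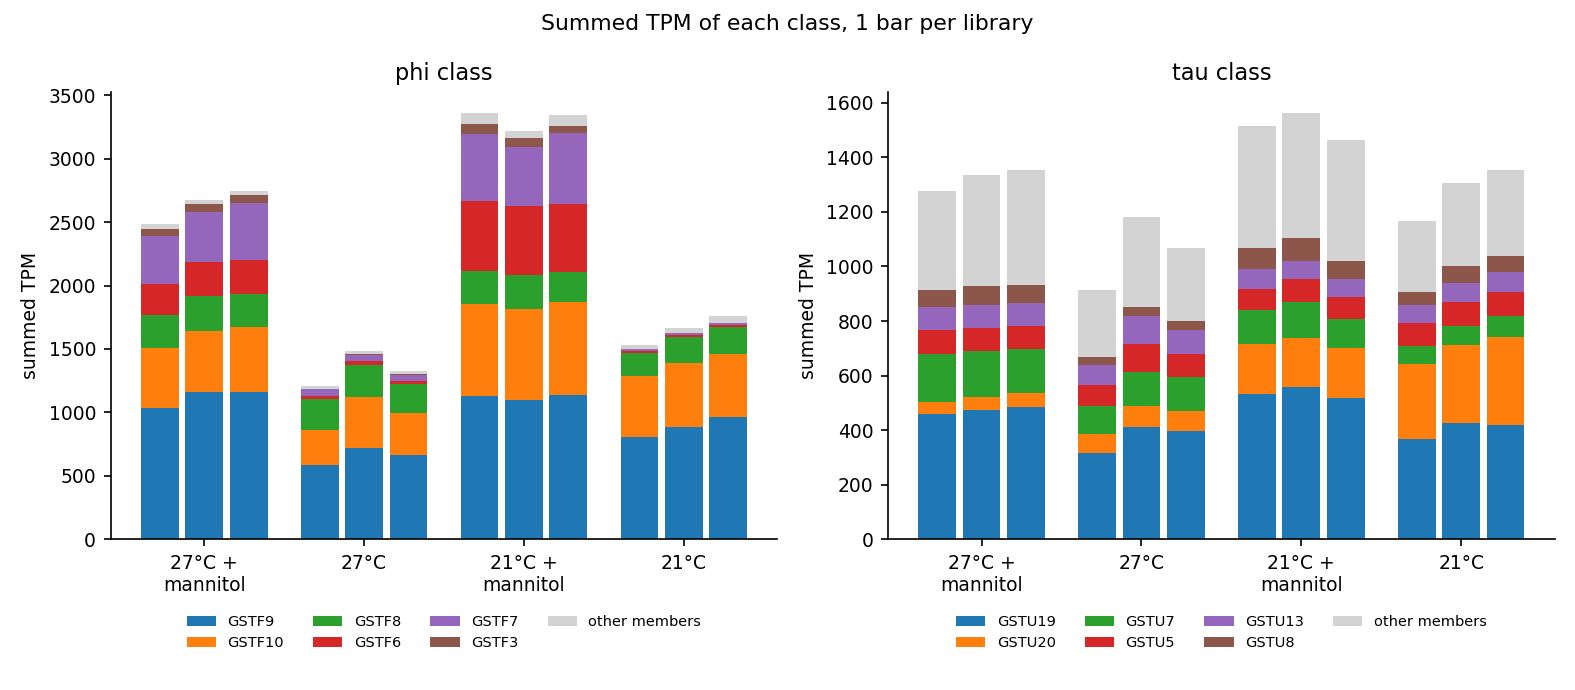
Summed TPM of the 12 phi genes (left) and 26 tau genes (right), 1 stacked bar per library, with groups from 27°C plus mannitol on the left to 21°C on the right and colours for the 6 named genes of each class. The phi bars with mannitol reach 2487 to 3358 TPM, above every bar without mannitol, and the GSTF6 and GSTF7 blocks are thicker in them.

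Summed over the class, phi genes reached 2636 ± 133 TPM at 27°C plus mannitol and 1340 ± 139 TPM at 27°C, and 3309 ± 76 TPM at 21°C plus mannitol and 1651 ± 117 TPM at 21°C (SD, n = 3 each). Tau genes reached 1322 ± 40 TPM at 27°C plus mannitol and 1054 ± 135 TPM at 27°C, and 1515 ± 49 TPM at 21°C plus mannitol and 1275 ± 97 TPM at 21°C (SD, n = 3 each). Within each temperature, libraries with mannitol lay above those without in both classes. GSTF9 held 42.4% of the phi sum at 27°C plus mannitol, 49.0% at 27°C, 33.9% at 21°C plus mannitol and 53.5% at 21°C. GSTF6 held 9.80% at 27°C plus mannitol, 1.74% at 27°C, 16.5% at 21°C plus mannitol and 1.08% at 21°C. GSTF7 held 15.5% at 27°C plus mannitol, 3.83% at 27°C, 15.6% at 21°C plus mannitol and 0.888% at 21°C. GSTU20 held 3.66% of the tau sum at 27°C plus mannitol, 6.99% at 27°C, 12.03% at 21°C plus mannitol and 23.2% at 21°C.

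Of the 6 members that were not tested, GSTF2, GSTF11 and GSTU2 are each largely covered by a table gene on the opposite strand (85.3% of GSTF2, the whole of GSTF11 and 75.5% of GSTU2), and GSTF11 is listed at 0 in all libraries. Over the whole table, 577 of 617 genes covered to 75% or more by another gene of the table are at 0 in all 12 libraries (93.52%), against 3072 of 20613 genes with no overlap (14.9%). The library kit is given with no strand, and how reads in overlaps were counted was not tested. GSTU3, which overlaps no other table gene, had at most 0.566 TPM. Without a filter on low values, GSTF5 (0.69, adjusted p = 0.0318) and GSTU21 (0.84, adjusted p = 0.0024) were called higher with mannitol at 21°C, and GSTU3 (0.39, adjusted p = 0.00722) at 27°C. In that fit, for 27°C plus mannitol against 21°C plus mannitol, GSTU3 was called higher (0.45, adjusted p = 0.00153) and GSTU21 lower (-0.77, adjusted p = 0.00145).

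Genes of the surrounding pathway, in lists chosen with earlier results of these data known, are given as counts. Among 10 tested xenobiotic and oxylipin detoxification partners, 7 rose with mannitol at 27°C, 9 with mannitol at 21°C and 8 with warmth, with none lower in these contrasts, while 27.7%, 15.4% and 28.2% of all tested genes were higher in that order. With warmth on mannitol 6 were higher and 1 lower, against 37.5% and 16.5% of all tested genes. The efflux carrier gene DTX3 rose by 1.47 and 1.98 with mannitol at 27°C and 21°C, and the cytochrome P450 gene CYP81D8 rose by 1.59 and 1.18. DTX1 had 7.93, 8.02 and 8.07 TPM at 27°C plus mannitol, against 7.52, 9.32 and 7.07 TPM at 27°C, and 12.1, 11.8 and 14.02 TPM at 21°C plus mannitol, against 3.99, 3.82 and 4.34 TPM at 21°C. Its interaction was -1.42 (SE 0.17).

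For the glutathione conjugate pumps of the vacuole (ABCC1, ABCC2 and ABCC3), 3 of 3 rose with mannitol at 27°C and 1 of 3 at 21°C, where ABCC3 rose by 1.22 at 27°C and 0.75 at 21°C. TGA2, TGA5, TGA6 and the GRAS protein gene SCL14, which acts with TGA factors on detoxification genes, rose in 4 of 4 with mannitol at 27°C and in 1 of 4 at 21°C. Among 4 genes of glutathione synthesis and reduction, 2 rose with mannitol at each temperature and none fell. Of 6 tested genes of glutathione breakdown, 4 rose with mannitol at 27°C and 1 at 21°C. In 11 tested genes of the other glutathione transferase classes, 4 rose and 2 fell with mannitol at 27°C, and 2 rose at 21°C, so that the rises were near the share of all tested genes. The same background, 27.7% of all tested genes higher with mannitol at 27°C and 15.4% at 21°C, applies to each of these lists. The lambda class gene GSTL1, a safener-responsive gene, had 28.4, 24.6 and 28.0 TPM at 27°C, against 2.18, 6.64 and 13.1 TPM at 21°C, and differed by -1.78 (SE 0.36) with mannitol at 27°C.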

How the data were processed

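RNA of whole seedlings was sequenced in 12 libraries. The authors deposited 1 table of TPM values for 27655 genes, and each of the 12 columns sums to 1000000. DESeq2 1.26.0, fastp 0.20.1, HISAT2 and build TAIR10 appear in the submitters' processing notes with no role. Counting tool, gene lengths, any filter and handling of reads shared by near-identical genes: not given in the sources used here.

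A search for step sizes turned 21754 of 21760 genes (those above 0 in 6 or more libraries) into whole reads, within a tolerance of 0.01; these served for depth and for the voom alternative, which was chosen after seeing the data. Precision at low levels is limited by counts of a few reads. The tests were run with limma 3.58.1 (R 4.3.3) on log2(TPM + 1), on 4 group means, trended, without covariates and two-sided, over 20005 genes with at least 1 TPM in at least 3 libraries; 7650 genes were left out. The contrasts were mannitol at each temperature, warmth with and without mannitol, and the interaction. The fitting steps were checked on simulated data.

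The members and the other gene lists were chosen with earlier results of these data known. Values per library are given, in each contrast and class, for up to 4 passing members with the largest absolute differences and for the most abundant member of each class; of every other list, up to 2 genes per contrast are named, with a few more for context. Promoters were read from RefSeq TAIR10.1, gene coordinates of which are used only for sequences and neighbours. Other promoters are not reported here. Coding sequences were aligned with Biopython 1.88. Alternatives were pseudocounts of 0.1 and 0.5, no filter, a filter at 5 TPM, median-of-ratios rescaling, a replicate block, only the groups compared, no trend and each library left out.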

Additional observations from a re-analysis of the deposited data

Results flagged for a closer look

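Differences in the mannitol effect between the temperatures passed the test for 6 members of 32 tested, against 5.12% of all tested genes. Expressed as the difference with mannitol at 27°C less the one at 21°C, on the log2(TPM + 1) scale, it was -2.2145 for GSTF3, -2.1008 for GSTF7, -1.4295 for GSTF6 and -1.0472 for GSTU12. It was 0.6462 for GSTU8 and 0.4248 for GSTF9. The calls of GSTU8 and GSTF9 were lost with rescaling, without a filter on low values and with voom. They held in 3 and 4 of 12 fits with 1 library left out, in that order. GSTU12 passed the filter only through libraries with mannitol, and its call was lost with voom. Photosynthetic markers moved in this term as well, with 2 of 6 lower, against 2.69% of all tested genes, and LHCB3 at -0.64. The part of these markers in the 6 results was not tested.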

How the results depend on the processing

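No member changed direction while called under any alternative: of 3316 member values under alternatives, 3178 stayed on their side of the threshold, 68 of them with the opposite sign and called in neither fit, 90 lost the call and 48 gained one. The number of members called under each library left out in turn ranged between 20 and 22 with mannitol at 27°C, 19 and 22 with mannitol at 21°C, 12 and 17 for warmth on mannitol, 13 and 20 for warmth alone and 4 and 7 for the interaction. Over 18 pairs the correlation of same-numbered residuals was -0.076 to 0.128, and the same number was the best match in 3. These values cannot show whether the libraries were paired by replicate number. With a replicate block the counts were 21, 22, 18, 15 and 7 in that order, and GSTU25 passed in the interaction (-0.88, adjusted p = 0.0419). Rescaling moved the median of all tested genes by -0.18 in the mannitol contrast at 27°C and -0.10 in that at 21°C, and by -0.17 in the warmth contrast on mannitol and -0.08 in that without. Depth limits GSTU11, GSTU12 and GSTF3 without mannitol, which rest on 0 to 7 reads per library at 21°C. TPM is a share of each library's total, so a change in the whole transcriptome is not seen.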
